A study of Mus musculus with 56 samples.

Results

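The genes described here are 10 markers and recruitment factors of macrophages: Csf1r, Csf1, Ccl2, Ccr2, C1qa, C1qb, Cd68, Cd163, Mrc1 and Arg1. They were chosen by symbol, and each was represented by its probe set with the highest mean over 56 arrays. All 10 passed the filter on low values, out of 12508 genes that did. The study grew mammary tumors from p53-null mammary fragments, themselves not irradiated, placed in the cleared inguinal fat pads of female BALB/c hosts, cleared of their own mammary epithelium at 3 weeks. Hosts were irradiated or sham-irradiated 3 days before transplantation. The groups were irradiated wild-type hosts (23 tumors), sham-irradiated wild-type hosts (9 tumors), irradiated Tgfb1 heterozygote hosts (18 tumors) and sham-irradiated Tgfb1 heterozygote hosts (6 tumors). In every group the transplanted epithelium was p53-null, and the radiation dose and the age at tumor collection are not stated in the labels. The heterozygote hosts carry 1 intact Tgfb1 allele in all host cells, so that irradiation and genotype apply to the host and to the macrophages it supplies, not to the transplanted epithelium. Host genotype and irradiation are those of the title of each sample, and nothing says whether each tumor came from its own host, so the p-values measure the spread between tumors.

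Macrophages enter a tumor largely as blood monocytes. Ccl2, a chemokine made by tumor and stromal cells, draws monocytes that carry its receptor Ccr2, and Csf1, the macrophage colony stimulating factor, keeps them alive through its receptor Csf1r. Inside the tissue, macrophages make the complement subunits C1qa and C1qb and the lysosomal glycoprotein Cd68, while the hemoglobin scavenger receptor Cd163 and the mannose receptor Mrc1 mark macrophages of the tissue-resident, alternatively activated kind. Arg1, the cytosolic arginase, is used as a marker of alternative activation in mouse macrophages but is also made by other cells. The arrays measured whole tumors, in which fewer cells of a type and less RNA per cell cannot be told apart.

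Promoter sequences are shown for Cd163 and Mrc1, which had the largest shifts with irradiation in wild-type hosts among these genes by p, and for C1qb, whose level followed Csf1r. The table of RefSeq promoters (GRCm38.p6) held 6 of the 10 genes: Csf1, Ccr2, C1qb, Cd68, Cd163 and Mrc1. Each promoter runs from 250 bases before to 50 bases after the gene's start, 5′ to 3′ on the gene's strand: chr2:14229164-14229463 (plus strand) for Mrc1, chr6:124304401-124304700 (plus strand) for Cd163 and chr4:136886151-136886450 (minus strand) for C1qb. Capitals mark GAGGAA on either strand (TTCCTC where it lies on the other strand), a core of the site bound by PU.1, the transcription factor that directs macrophage development.
Mrc1: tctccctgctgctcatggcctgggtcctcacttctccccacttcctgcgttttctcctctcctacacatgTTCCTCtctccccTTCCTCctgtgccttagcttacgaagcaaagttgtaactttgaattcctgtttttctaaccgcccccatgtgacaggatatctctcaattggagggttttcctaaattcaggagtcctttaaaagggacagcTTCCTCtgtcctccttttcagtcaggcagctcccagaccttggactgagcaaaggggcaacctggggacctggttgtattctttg
Cd163: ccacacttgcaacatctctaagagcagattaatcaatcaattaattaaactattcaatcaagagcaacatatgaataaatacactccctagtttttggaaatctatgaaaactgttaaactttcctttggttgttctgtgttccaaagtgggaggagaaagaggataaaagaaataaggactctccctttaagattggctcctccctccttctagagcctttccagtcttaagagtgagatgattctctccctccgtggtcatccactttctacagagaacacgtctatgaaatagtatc
C1qb: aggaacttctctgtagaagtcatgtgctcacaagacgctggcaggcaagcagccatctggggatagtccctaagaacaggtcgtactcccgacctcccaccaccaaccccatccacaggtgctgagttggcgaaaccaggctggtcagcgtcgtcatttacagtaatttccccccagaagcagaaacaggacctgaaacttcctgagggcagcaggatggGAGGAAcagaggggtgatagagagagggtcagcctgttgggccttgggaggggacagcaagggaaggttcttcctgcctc
The Mrc1 window held 3 copies, beginning at -180, -167 and -35 from the start, and the C1qb window held 1 copy, beginning at -30. The letters were not found in the Cd163 window. Of the 6 matched promoters, 3 (Mrc1, C1qb and Cd68) held the motif, and so did 28.3% of all 32851 promoters in the table. A match is a description of these letters and not a bound site.

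All values are log2 expression values as the authors deposited them after RMA, so that 1 unit is a 2-fold difference. Array medians were 5.92 to 6.00 in wild-type hosts and 5.57 to 5.71 in heterozygote hosts, so the genotypes were treated as normalized separately, and irradiation was compared within each genotype only. The pan-macrophage and myeloid list had 29 of its 30 genes measured, and its mean log2 value per tumor ran from 8.52 to 10.51 in irradiated and from 9.07 to 10.65 in sham-irradiated wild-type hosts, and from 8.20 to 10.40 in irradiated and from 8.27 to 9.83 in sham-irradiated heterozygote hosts. Quality measures differed with the groups. The 18S ribosomal RNA control averaged 12.74 ± 0.90 (SD, n = 23) in irradiated and 11.28 ± 1.78 (SD, n = 9) in the sham group of wild-type hosts. It lay below 11 on 2 irradiated and 4 sham-irradiated arrays of wild-type hosts, and on 2 irradiated and 1 sham-irradiated arrays of heterozygote hosts. In wild-type hosts these were irradiated replicates 57 and 59 and sham-irradiated replicates 60, 61, 64 and 65, the highest replicate numbers of that genotype. In heterozygote hosts they were replicates 29, 4 and 19, which are not the highest. The labels name no batch, and a link with the order of the arrays was not tested. The 3' minus 5' difference of the actin and Gapdh control probe sets (log2), a measure of RNA quality, averaged 0.27 ± 0.11 (SD, n = 18) in irradiated and 0.40 ± 0.17 (SD, n = 6) in sham-irradiated heterozygote hosts, and 12 of the 18 irradiated arrays lay below every sham array. Results were therefore also computed without the low-18S arrays, and with the 18S value or the 3' minus 5' difference added to the model. Epithelial markers separated a few tumors: in 4 of 32 tumors of wild-type hosts and 4 of 24 of heterozygote hosts the mean epithelial value lay below a gap in the distribution.

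**Figure D1:**
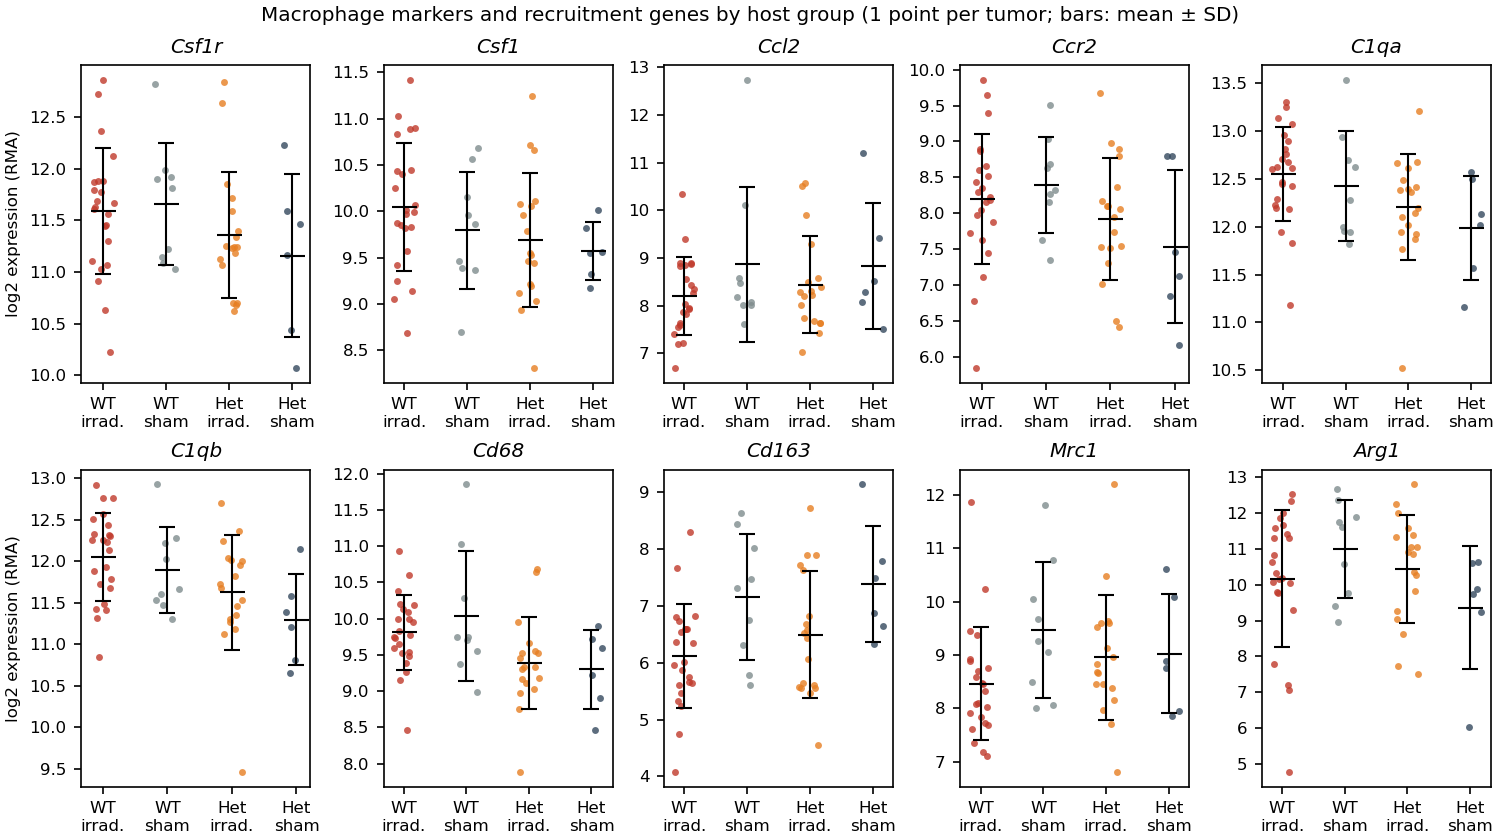
Log2 expression of the 10 genes in each tumor, with irradiated hosts left of sham-irradiated hosts in each genotype; bars are the mean and SD. Irradiated and sham-irradiated tumors overlap for every gene; Cd163 averages 6.12 in irradiated and 7.15 in sham-irradiated wild-type hosts.

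The first question was whether host irradiation before transplantation altered the level of these genes in tumors that arose in wild-type hosts. Cd163 and Mrc1 had the 2 lowest p of the 10 genes, both with lower values in tumors of irradiated hosts, and neither passed the limma test after adjustment over all genes. None of the 10 genes was called at an adjusted p of 0.05, and none of the 12508 genes was (0%). At an unadjusted p of 0.05, 2 of the 10 had lower values, Cd163 and Mrc1, and 0 had higher values. Over all genes 7.07% passed the unadjusted threshold, 3.9% with lower and 3.17% with higher values. The median log2 fold change of the 10 genes was -0.21, beside 0.00 over all genes tested. For all 10 genes the ranges of irradiated and sham-irradiated tumors overlapped in both genotypes.

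Cd163 values ran from 4.07 through a median of 6.01 to 8.30 in irradiated wild-type hosts, against 5.61, 7.32 and 8.63 in sham-irradiated wild-type hosts. Most irradiated tumors lay low: 2 of 23 exceeded the median of the sham group. The log2 fold change was -1.03 (SE 0.39, 95% interval -1.82 to -0.24), with a limma p of 0.0115 and an adjusted p of 0.574. In heterozygote hosts the lowest, median and highest values were 4.56, 6.48 and 8.73 after irradiation, against 6.33, 7.18 and 9.15 after sham irradiation. There 5 of 18 irradiated tumors exceeded the sham median, with a log2 fold change of -0.88 (SE 0.47) and a limma adjusted p of 0.873. The highest sham value came from 1 tumor, sham-irradiated heterozygote replicate 15, without which the value was -0.53. With the 3' minus 5' difference as a covariate it was -0.80. Cd163 thus had lower mean values with irradiation in both genotypes, and the difference between the genotypes' effects was 0.15 (SE 0.62, 95% interval -1.09 to 1.38, limma adjusted p = 0.999). The Cd163 probe set averaged 6.54 over all arrays and exceeded the median of all values, 5.826, on 38 of them. Part of the Cd163 values thus lay at or below that median, and the bearing of this on the differences was not tested.

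Mrc1 in irradiated wild-type hosts ran from 7.10 through a median of 8.33 to 11.88, against 8.0, 9.27 and 11.82 in sham-irradiated ones. The ranges overlapped almost entirely at the top, while 4 of 23 irradiated tumors lay above the sham median. The log2 fold change was -1.0 (SE 0.44, 95% interval -1.88 to -0.12), with a limma p of 0.0262 and an adjusted p of 0.666. Tumors of heterozygote hosts had Mrc1 at 6.80, 8.76 and 12.21 (lowest, median, highest) after irradiation, against 7.85, 8.82 and 10.61 after sham irradiation. These groups shared nearly the same centre, with a log2 fold change of -0.07 (SE 0.53, limma adjusted p = 0.993). The effect differed by 0.94 between genotypes (SE 0.68, 95% interval -0.44 to 2.31), which did not pass the limma test (adjusted p = 0.999).

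The low-18S arrays bear on these 2 genes. The 4 sham-irradiated wild-type tumors with a low 18S control had Cd163 values of 8.63, 5.61, 7.32 and 8.45 (replicates 60, 61, 64 and 65), which include the lowest and the highest value of that group. Their Mrc1 values were 11.82, 8.07, 9.06 and 9.67 in the same order, including the highest of that group. Without all low-18S arrays the log2 fold change in wild-type hosts was -0.78 for Cd163 and -0.98 for Mrc1. With the 18S value in the model it was -0.72 for Cd163 and -0.54 for Mrc1. No alternative brought either gene past the adjusted threshold.

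The growth factor Csf1 and its receptor Csf1r had small differences in both genotypes. Csf1r ran from 10.23 through 11.63 to 12.86 in irradiated and from 11.03 through 11.81 to 12.82 in sham-irradiated wild-type hosts, which gave -0.07 on the log2 scale (95% interval -0.55 to 0.42). In heterozygote hosts it ran from 10.62 through 11.24 to 12.84 after irradiation and from 10.07 through 11.31 to 12.23 after sham irradiation (0.20, interval -0.39 to 0.78). Csf1 averaged 10.05 ± 0.69 (SD, n = 23) in irradiated and 9.80 ± 0.63 (SD, n = 9) in the sham group of wild-type hosts. In heterozygote hosts the Csf1 mean was 9.69 ± 0.72 (SD, n = 18) after irradiation and 9.58 ± 0.31 (SD, n = 6) after sham irradiation. Neither gene passed the test in either genotype; the 95% interval for Csf1 was -0.50 to 0.73 in heterozygote and -0.26 to 0.77 in wild-type hosts. With 1 sham-irradiated tumor left out in turn, Csf1 ran from 0.03 (without replicate 52) to 0.20 (without replicate 19) in heterozygote and from 0.12 (without replicate 64) to 0.36 (without replicate 60) in wild-type hosts.

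The chemokine Ccl2 had means of 8.20 ± 0.82 (SD, n = 23) in irradiated and 8.86 ± 1.62 (SD, n = 9) in the sham group of wild-type hosts. The sham mean rests on 1 tumor, replicate 46 at 12.74, where the nearest other sham tumor had 10.11. The log2 fold change of -0.66 (SE 0.42, limma adjusted p = 0.803) was -0.18 without that tumor. In heterozygote hosts Ccl2 averaged 8.44 ± 1.01 (SD, n = 18) after irradiation and 8.83 ± 1.32 (SD, n = 6) after sham irradiation. The highest sham value there was 11.20 (replicate 15), and the next was 9.41. Ccl2 had a log2 fold change of -0.39 (SE 0.50, limma adjusted p = 0.959) in these hosts, which ran from -0.66 to 0.08 with 1 sham-irradiated tumor left out in turn. Its receptor Ccr2 had log2 fold changes of 0.39 (SE 0.40) in heterozygote and -0.20 (SE 0.34) in wild-type hosts, and in heterozygote hosts 15 of 18 irradiated tumors exceeded the sham median. The difference between genotypes in the Ccr2 effect was 0.60 (SE 0.52, limma adjusted p = 0.999). With 1 sham-irradiated tumor left out in turn, Ccr2 ran from 0.12 (without replicate 52) to 0.64 in heterozygote hosts, from -0.34 (without replicate 17) to -0.06 (without replicate 60) in wild-type hosts, and from 0.32 to 0.85 in the difference.

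C1qa and C1qb, whose genes lie side by side on chromosome 4 (C1qa from 136895916 to 136898844 and C1qb from 136880126 to 136886200, GRCm38.p6), had slightly higher means with irradiation in both genotypes. C1qa averaged 12.55 ± 0.49 (SD, n = 23) in irradiated and 12.42 ± 0.57 (SD, n = 9) in the sham group of wild-type hosts. C1qb averaged 12.05 ± 0.53 (SD, n = 23) in irradiated and 11.89 ± 0.52 (SD, n = 9) in the sham group of wild-type hosts. In heterozygote hosts the log2 fold changes were 0.22 (SE 0.25) for C1qa and 0.32 (SE 0.27) for C1qb. Cd68 differed by 0.09 (SE 0.29) in heterozygote and by -0.22 (SE 0.24) in wild-type hosts. None of these differences exceeded the spread between tumors by the limma test, where the adjusted p ran from 0.909 to 0.983 for the 3 genes. Leaving out sham-irradiated heterozygote replicate 52 gave 0.05 for C1qa and 0.20 for C1qb in those hosts, and leaving out wild-type replicate 60 gave 0.27 and 0.29 in wild-type hosts. The highest Cd68 value of the wild-type sham group was 11.86 (replicate 46), and the next was 11.03. With 1 sham-irradiated tumor left out in turn, Cd68 ran from -0.35 to 0.00 in wild-type and from -0.08 to 0.21 in heterozygote hosts.

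Arg1 was the most variable of the 10 genes. Its values ran from 4.76 through a median of 10.34 to 12.54 in irradiated wild-type hosts, against 8.96, 11.63 and 12.67 in sham-irradiated ones. In heterozygote hosts they ran from 7.50 through 10.89 to 12.82 after irradiation, against 6.02, 9.81 and 10.64 after sham irradiation. The sign of the difference was opposite in the 2 genotypes: 1.08 (SE 0.78, limma adjusted p = 0.922) in heterozygote and -0.83 (SE 0.65, limma adjusted p = 0.862) in wild-type hosts. The difference between the effects was 1.91 (SE 1.01, 95% interval -0.12 to 3.95) and did not pass the limma test (p = 0.0646, adjusted p = 0.999). Without sham-irradiated heterozygote replicate 52, at 6.02, the value in heterozygote hosts was 0.42 and the difference between the effects 1.25. In wild-type hosts it was -0.09 with array weights.

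**Figure D2:**
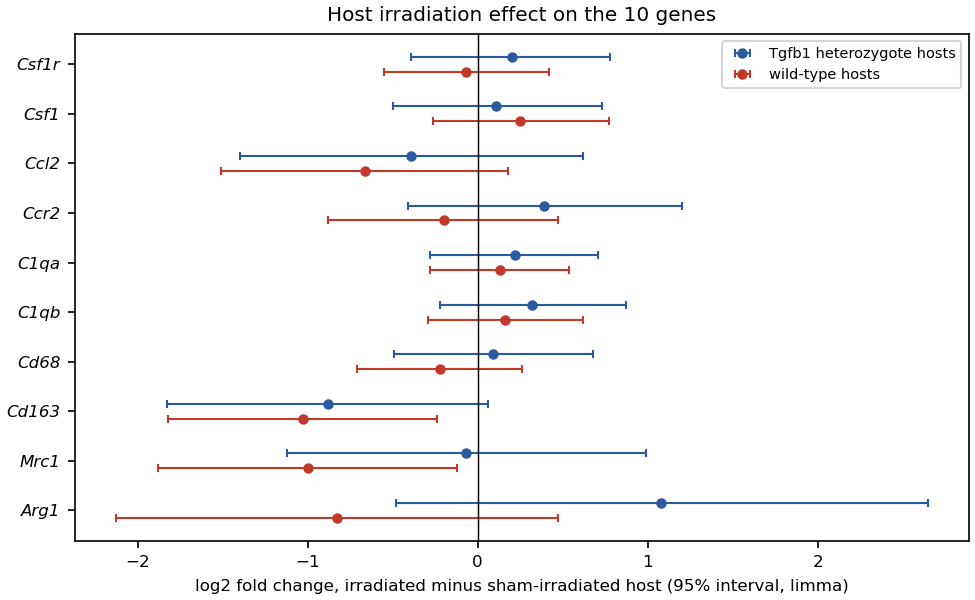
Log2 fold change of each gene, irradiated minus sham-irradiated hosts, with 95% intervals from limma, for Tgfb1 heterozygote and wild-type hosts. In wild-type hosts the intervals of Cd163 (-1.82 to -0.24) and Mrc1 (-1.88 to -0.12) lie below 0 before adjustment; all intervals in heterozygote hosts span 0.

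In heterozygote hosts none of the 10 genes was called and none of 12508 genes was (0%). At an unadjusted p of 0.05, 0 of the 10 genes passed, beside 5.84% of all genes. The median log2 fold change of the 10 was 0.16, with 7 of 10 positive, beside a median of 0.01 and 51.8% positive over all genes. For the difference between genotypes 0 of the 10 genes passed the unadjusted threshold, beside 4.84% of all genes, and none of 12508 genes was called (0%). In that contrast 9 of the 10 values were positive, as were 51.8% over all genes, Csf1 being the exception at -0.14.

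Cd163 and Mrc1 were set beside the other genes used as markers of alternative activation. Of 12 listed genes, which exclude the 10 above and were chosen with earlier results of these data known, 10 were measured. Several of them followed Mrc1 or Cd163 across tumors, as given below, so they do not count as independent genes. All 10 had a negative log2 fold change in wild-type hosts (median -0.60), where 50.7% of all genes did. At an unadjusted p under 0.05, 4 of the 10 passed, beside 7.07% of all genes (3.9% with lower values). These were Lyve1, a hyaluronan receptor of resident macrophages and lymphatic endothelium (-1.74, SE 0.57), F13a1, the coagulation factor XIII A chain (-1.35, SE 0.43), Clec10a, a galactose-binding lectin (-1.03, SE 0.40), and Folr2, a folate receptor (-0.97, SE 0.31). Their limma adjusted p ran from 0.480 to 0.577, so none was called. Among irradiated wild-type tumors, 0 of 23 exceeded the sham median for Lyve1, 1 of 23 for Folr2, and 3 of 23 each for F13a1 and Clec10a. In heterozygote hosts 7 of the 10 values were positive, 0 passed the unadjusted threshold, and the median was 0.04. Over all genes 51.8% were positive there and 5.84% passed. All 10 values of the difference between genotypes were positive (median 0.83), and 1 passed the unadjusted threshold, Lyve1 (1.80, SE 0.89, limma p = 0.047, adjusted p = 0.999). For that difference 51.8% of all genes were positive and 4.84% passed.

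Without the low-18S arrays 8 of the 10 were negative in wild-type hosts (median -0.45) and 2 passed the unadjusted threshold. With the 18S value in the model 8 were negative (median -0.22) and 3 passed. Without the tumors of a mean epithelial value below 10, 9 were negative (median -0.43) and 2 passed. In wild-type hosts this cutoff also took out tumors above the gap, among them sham-irradiated replicate 46 (9.51). When each sham-irradiated wild-type tumor was left out in turn, all 10 stayed negative, and the median lay between -0.74 and -0.45. The count and the median in heterozygote hosts depended on single tumors: 8 of the 10 were negative without sham-irradiated replicate 52 (median -0.17), 7 without replicate 58 (median -0.11) and 6 without replicate 38 (median -0.03). There 7 were also negative with array weights (median -0.11) and with the pan-macrophage mean as a covariate (median -0.16). In the difference between genotypes all 10 stayed positive in each of these settings, but the median was 0.47 with the 18S value in the model and 0.48 without the low-18S arrays, and 0 passed. Lyve1 lost the unadjusted threshold there in 9 of the 15 fits that left out 1 sham-irradiated tumor.

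**Figure D3:**
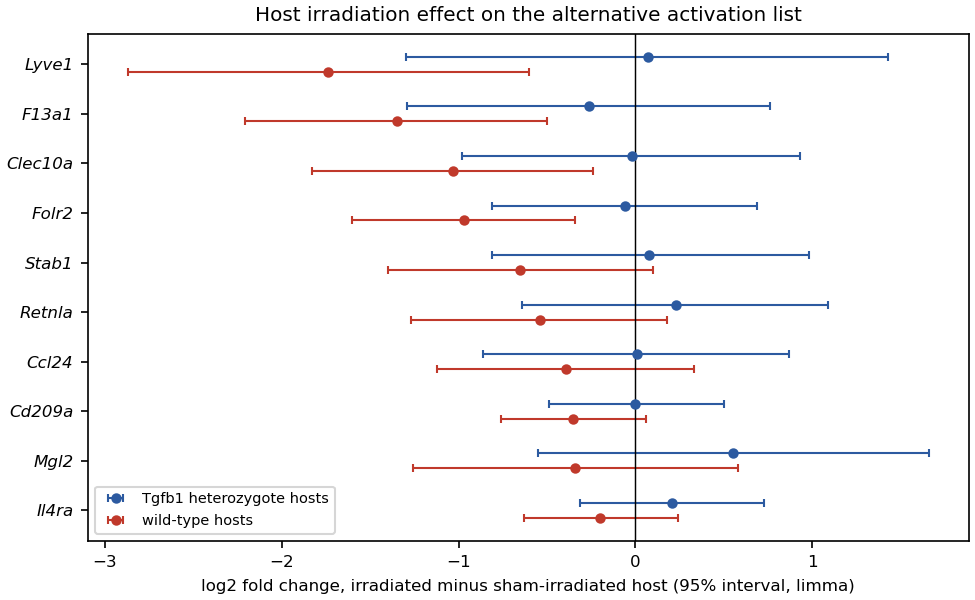
Log2 fold changes, irradiated minus sham-irradiated hosts, of the 10 measured genes of the alternative activation list with 95% intervals from limma, in Tgfb1 heterozygote and wild-type hosts. In heterozygote hosts the points lie on both sides of 0; in wild-type hosts all 10 lie below 0, with Lyve1 lowest at -1.74.

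General macrophage markers had small positive medians. Of the 29 measured pan-macrophage and myeloid genes, 26 had positive values in heterozygote hosts (median 0.25) and 22 in wild-type hosts (median 0.08). Over all genes 51.8% and 49.3% were positive, and 0 of the 29 were called in either. In wild-type hosts 2 of the 29 had lower values at an unadjusted p of 0.05, beside 3.9% of all genes. These were Pf4 (-1.21, SE 0.42), a chemokine of platelets and of some macrophages, and Mertk (-0.66, SE 0.30), a receptor for the uptake of dying cells. At the same threshold 2 had higher values, beside 3.17% of all genes: Cx3cr1 (0.48, SE 0.23), the fractalkine receptor, and Siglec1 (0.19, SE 0.07), the sialoadhesin. In heterozygote hosts 2 of the 29 had higher values at an unadjusted p of 0.05 and 0 had lower values, beside 5.84% of all genes in either direction. They were Cd14, the lipopolysaccharide co-receptor (1.11, SE 0.47), and Csf2ra, a receptor subunit for granulocyte-macrophage colony stimulating factor (0.48, SE 0.18). The adjusted p of these 6 ran from 0.502 to 0.785 in limma. When the mean of the pan-macrophage genes was added as a covariate, Cd163 was at -1.08 and Mrc1 at -1.10 in wild-type hosts.

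These counts rest in part on single tumors. Without sham-irradiated heterozygote replicate 52 the median of the list was 0.09, with 8 of the 29 values negative, and neither Cd14 nor Csf2ra passed. Without replicate 58 the median was 0.17, and with array weights 0.12, again with 8 negative. In wild-type hosts the median was 0.02 without sham-irradiated replicate 64, with 13 negative, and 0.23 without replicate 60, and it was 0.26 with the 18S value in the model and 0.22 without the low-18S arrays. Of the 9 fits that left out 1 sham-irradiated wild-type tumor, Cx3cr1 lost the unadjusted threshold in 5 and Mertk in 3. Neutrophil markers had values on the same side of 0 as Cd14, Csf2ra and the attractant Csf3 in heterozygote hosts. Of the 5 measured, 5 were positive (median 0.94), beside 51.8% of all genes. At an unadjusted p of 0.05, 1 of the 5 passed, beside 5.84% of all genes. It was the granulocyte colony stimulating factor receptor Csf3r (0.94, SE 0.33, limma p = 0.00649, adjusted p = 0.676). The mean neutrophil value per tumor ran from 7.72 to 10.66 in irradiated and from 5.83 to 9.48 in sham-irradiated heterozygote hosts. The lowest sham value was again that of replicate 52, and the next lowest was 7.25 (replicate 58). The part of the neutrophil value in the result was not tested.

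Of 19 measured monocyte attractants and their receptors other than Ccl2 and Ccr2, 14 had positive values in heterozygote hosts (median 0.21), and 11 had negative values in wild-type hosts (median -0.05). Over all genes 51.8% were positive in heterozygote and 50.7% negative in wild-type hosts. The chemokines Ccl6 (-1.03, SE 0.33) and Ccl8 (-0.69, SE 0.34) had lower values in wild-type hosts at an unadjusted p of 0.05. They were 2 of the 19, beside 3.9% of all genes. The granulocyte colony stimulating factor Csf3 had a higher value in heterozygote hosts (1.36, SE 0.59), 1 of the 19 at that threshold, beside 5.84% of all genes in either direction. Limma adjusted p for these were 0.492, 0.705 and 0.805. Csf3 did not pass without sham-irradiated heterozygote replicate 52 or 58, and without replicate 52 the median of the list was 0.04 in those hosts. Ccl8 lost the unadjusted threshold in 5 of the 9 fits that left out 1 sham-irradiated wild-type tumor. In the difference between genotypes 1 of the 19 passed that threshold, beside 4.84% of all genes. It was Ccl6 (1.35, SE 0.52, limma p = 0.0123, adjusted p = 0.999). Ccl6 lost the threshold there in 0 of 15 fits without 1 sham-irradiated tumor, and in 2 of 11 other settings. These were array weights (0.92) and leaving out low-18S arrays (0.91). The median in wild-type hosts turned positive without replicate 31 (0.07), 46 (0.10) or 60 (0.15), and with the 18S value in the model (0.18, 6 negative). It was also positive without tumors of a mean epithelial value below 10 (0.24, 5 negative), which include replicates 46 and 60. Of 8 measured genes of classical activation, 5 had positive values in heterozygote and 6 in wild-type hosts, beside 51.8% and 49.3% of all genes. At the unadjusted threshold 0 passed, beside 5.84% of all genes in heterozygote and 7.07% in wild-type hosts. The lowest p in wild-type hosts was that of Cxcl9, an interferon-induced chemokine (0.98, SE 0.51, limma adjusted p = 0.707). Of 6 measured complement genes outside C1q, 4 had negative values in wild-type hosts, beside 50.7% of all genes. In either genotype 0 of these 6 passed, beside the same shares of all genes as above.

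Markers of some other cell types had values on the same side of 0 as Cd163, Mrc1 and the alternative activation genes in wild-type hosts. Values were negative for 5 of 5 mast cell genes (median -0.65), 8 of 8 endothelial genes (median -0.37), 5 of 5 adipocyte genes (median -0.29) and 13 of 14 fibroblast and matrix genes (median -0.26). Other lists lay on the other side, with positive values for 5 of 6 T cell genes (median 0.21), 6 of 8 basal epithelial genes (median 0.23) and 7 of 11 epithelial genes (median 0.12). Over all genes 50.7% were negative and 49.3% positive in these hosts. The mean mast cell value per tumor ran from 5.03 to 6.43 in irradiated and from 5.78 to 8.66 in sham-irradiated wild-type hosts. The endothelial value ran from 6.91 to 9.05 in irradiated and from 6.91 to 11.97 in sham-irradiated ones. Both highest sham values came from replicate 46, where the next highest sham tumor had 6.88 for mast cell and 8.41 for endothelial genes. The mean endothelial value was 7.72 in irradiated and 8.11 in sham-irradiated hosts, and the sham mean was 7.63 without replicate 46. Without that tumor 6 of the 8 endothelial genes were positive (median 0.09), while all 5 mast cell genes stayed negative (median -0.30). Without tumors of a mean epithelial value below 10, which also leaves out replicate 46, the endothelial median was 0.07. With the 18S value in the model 3 of the 14 fibroblast and matrix genes were negative (median 0.20). The adipocyte value ran from 6.73 to 8.48 in irradiated and from 6.51 to 10.08 in sham-irradiated hosts, and the fibroblast and matrix value from 9.91 to 12.32 in irradiated and from 9.66 to 12.18 in sham-irradiated hosts. With the fibroblast and matrix value as a covariate, Cd163 was at -0.87 and Mrc1 at -0.74. The part of the mast cell, endothelial and adipocyte genes in the result was not tested.

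Tumors of the same group differed widely in these genes. The within-group SD was 1.69 for Arg1, more than that of 98.8% of all genes tested, 1.14 for Mrc1 (93.0%), 1.09 for Ccl2 (92.0%), 1.02 for Cd163 (90.5%) and 0.87 for Ccr2 (85.3%). It was lowest for C1qa at 0.53, still above the value of 65.9% of genes. The median over all genes was 0.41.

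How the genes varied together was examined across the 32 tumors of wild-type and the 24 tumors of heterozygote hosts separately. Csf1r was followed by most of the others. Pearson's r with C1qa was 0.90 in wild-type hosts (Spearman's rho 0.88, permutation adjusted p = 3e-05) and 0.80 in heterozygote hosts (rho 0.83, permutation adjusted p = 4.5e-05), with p-values adjusted over 18 relations. Without the 2 tumors farthest from the median of Csf1r, r was 0.88 and 0.75. For C1qb r was 0.85 in wild-type and 0.70 in heterozygote hosts, for Ccr2 0.81 and 0.82, for Csf1 0.78 and 0.79, for Cd68 0.62 and 0.84, and for Mrc1 0.58 and 0.72, all with a permutation adjusted p of 0.00075 or lower. For Ccl2 r was 0.56 in wild-type hosts (permutation adjusted p = 0.00127) and 0.54 in heterozygote hosts (0.00801). In heterozygote hosts the Ccl2 relation rested on the 2 extreme tumors (r = 0.35 without them, permutation adjusted p = 0.131).

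Cd163 followed Csf1r weakly. Its r was 0.33 in wild-type hosts (rho 0.26, permutation adjusted p = 0.0759) and 0.48 in heterozygote hosts (rho 0.42, permutation adjusted p = 0.0219), and 0.27 in heterozygote hosts without the 2 extreme tumors. Arg1 did not follow Csf1r: r was -0.29 in wild-type hosts (permutation adjusted p = 0.113) and -0.14 in heterozygote hosts (permutation adjusted p = 0.508). With group means removed the relations with Csf1r kept nearly the same size, for example 0.91 and 0.79 for C1qa.

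Among the other pairs, given as a description without a test, C1qa and C1qb had r of 0.95 in wild-type and 0.96 in heterozygote hosts. Cd163 and Mrc1 had r of 0.71 and 0.72, while Cd163 with C1qb had r of 0.05 and 0.09. The pair Cd68 and Ccl2 had r of 0.86 in wild-type hosts and 0.56 in heterozygote hosts. Sham-irradiated replicate 46 had the highest value of both genes in wild-type hosts (11.86 and 12.74), and r without it was not computed. The r of Arg1 with the other 9 genes ran from -0.30 to 0.12 in wild-type hosts and from -0.34 to 0.02 in heterozygote hosts.

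**Figure D4:**
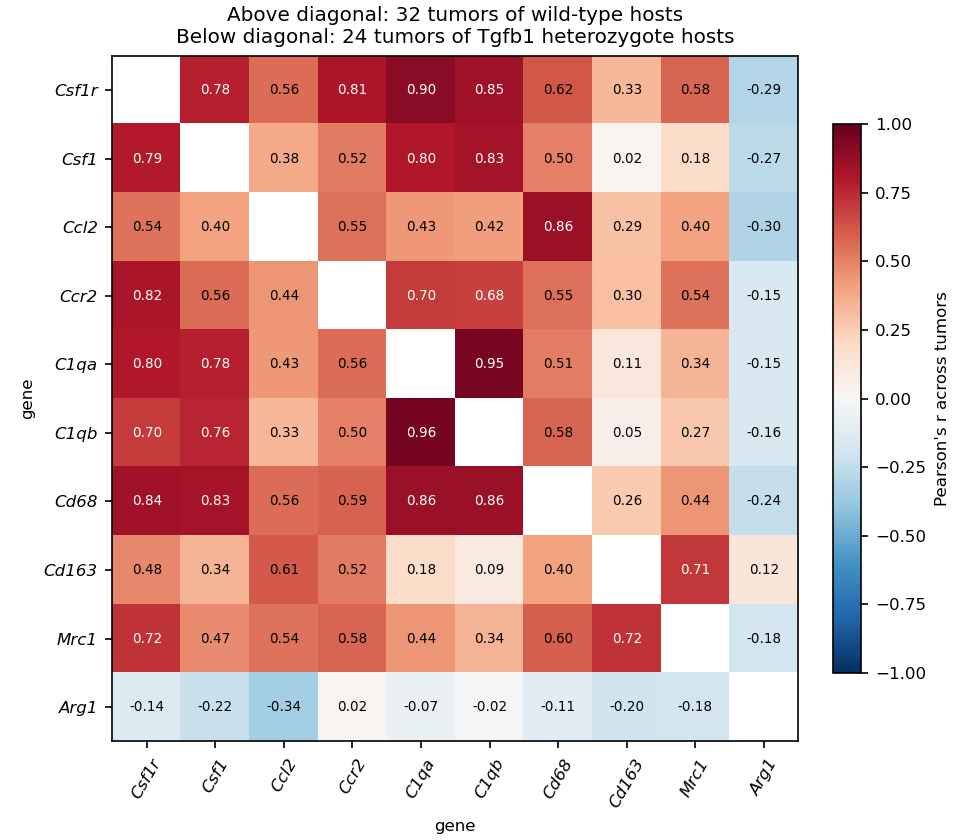
Pearson's r between the 10 genes across tumors, wild-type hosts above the diagonal and Tgfb1 heterozygote hosts below it. Csf1r, Csf1, C1qa, C1qb, Cd68 and Ccr2 form a block of positive values (0.50 to 0.96). Cd163 and Mrc1 have 0.71 and 0.72 with each other, and Mrc1 has 0.58 and 0.72 with Csf1r. Arg1 stands apart with values at or near 0 or below.

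The genes whose pattern over tumors was most like that of a given gene were ranked by the lower of the r in 32 tumors of wild-type and 24 tumors of heterozygote hosts, over all 12508 genes. For Csf1r these were Nckap1l, Btk, Fermt3, Arhgap30 and P2ry6, with a lower r of 0.92 to 0.95, of which Nckap1l, Btk and Fermt3 act in blood cells. For Csf1 they were C1qc, Gpr65, Aif1, Ptpro and Lat2 (0.80 to 0.82), of which C1qc and Aif1 are macrophage markers. For Ccl2 they were Gap43, Sema3a, Ch25h, Meox2 and Myct1 (0.74 to 0.82). For Arg1 they were Stard3, Dsc2, Coasy, Arg2 and Sh3yl1 (0.64 to 0.70), where Arg2 is the mitochondrial arginase and Dsc2 a desmosomal cadherin of epithelium. The rankings for Mrc1 and Cd163 were added after values were seen. Mrc1 was most like Npl, Fcgrt, Maf, Abca9 and Folr2 (0.82 to 0.88), and Cd163 was most like Ccl8, F13a1, Lgi2, Clec10a and Cd209a (0.70 to 0.79). Of these, Folr2, F13a1, Clec10a and Cd209a belong to the alternative activation list and Ccl8 to the attractant list.

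The level of each gene was then set against the mean fibroblast and matrix value and the mean hypoxia and glycolysis value, with p-values adjusted over 60 relations. Mrc1 followed the matrix value most closely, with r = 0.83 in wild-type hosts (rho 0.76, permutation adjusted p = 0.0006) and r = 0.75 in heterozygote hosts (rho 0.79, permutation adjusted p = 0.0008). The relation kept its size without the 2 extreme tumors (0.78 and 0.72). Cd163 had r = 0.49 in wild-type hosts (rho 0.46, permutation adjusted p = 0.0158) and 0.67 in heterozygote hosts (rho 0.64, permutation adjusted p = 0.00317), and without the extreme tumors 0.33 (permutation adjusted p = 0.166) and 0.66. Csf1r had r = 0.67 in wild-type and 0.56 in heterozygote hosts, where it rested on the extreme tumors (0.36 without them, permutation adjusted p = 0.224). Ccl2 had r = 0.59 and 0.61 in wild-type and heterozygote hosts (permutation adjusted p = 0.00317 and 0.0104), and Ccr2 0.57 and 0.53 (permutation adjusted p = 0.0051 and 0.0223). Cd68 (r = 0.60, permutation adjusted p = 0.00317) and C1qa (r = 0.45, permutation adjusted p = 0.0259) passed in wild-type hosts only. Without the extreme tumors Ccl2 and Cd68 passed in neither genotype, and Ccr2 and C1qa in wild-type hosts only. Csf1 did not pass in either genotype. C1qb did not pass in either genotype (r = 0.39 in wild-type and 0.09 in heterozygote hosts, permutation adjusted p = 0.0622 and 0.727), but passed in wild-type hosts with group means removed (r = 0.42, permutation adjusted p = 0.0404). Arg1 ran against the matrix value in wild-type hosts (r = -0.49, rho -0.44, permutation adjusted p = 0.0158). There r was -0.54 with group means removed and -0.41 without the extreme tumors (permutation adjusted p = 0.0793), and in heterozygote hosts r was -0.16 (permutation adjusted p = 0.501).

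**Figure D5:**
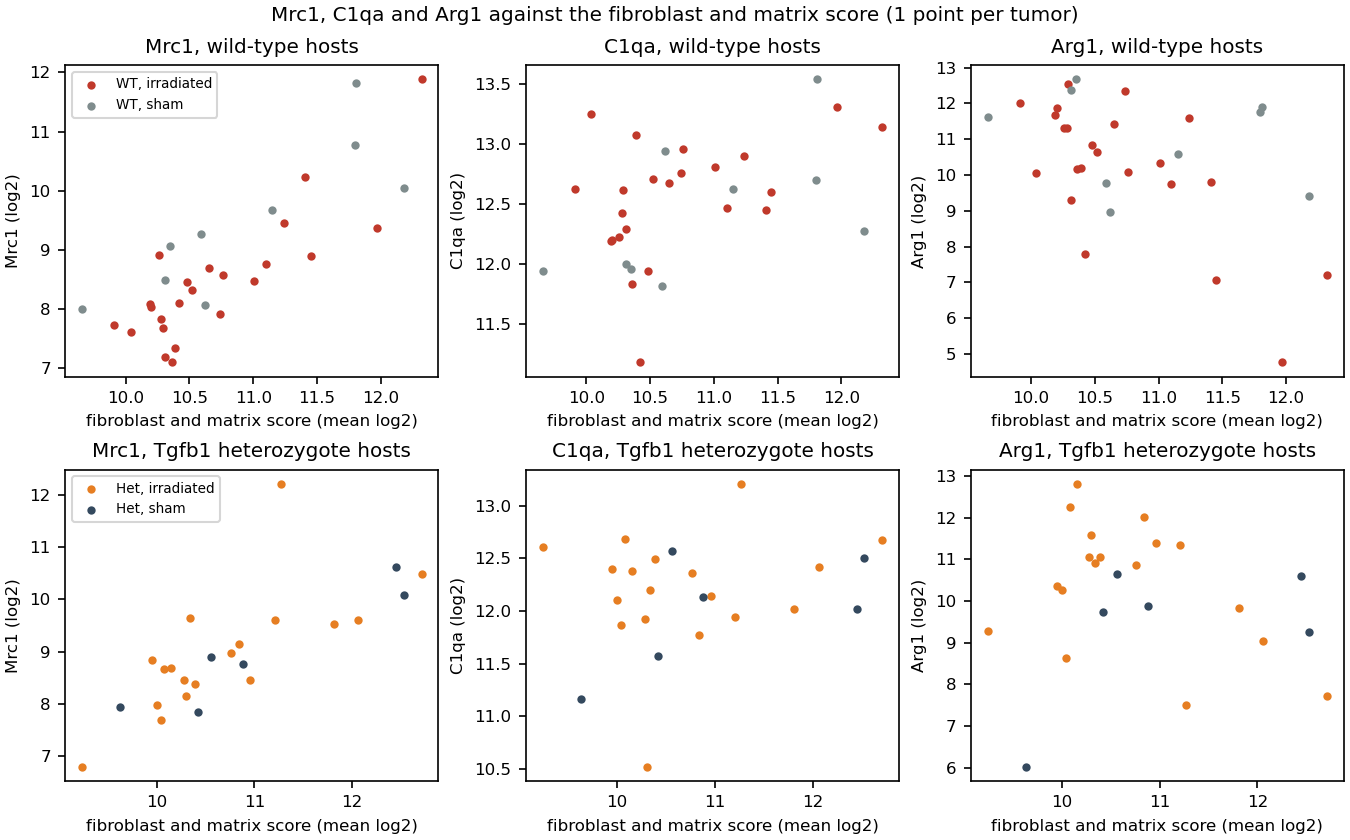
Mrc1, C1qa and Arg1 (log2) against the mean log2 value of the fibroblast and matrix genes, 1 point per tumor, irradiated and sham-irradiated hosts in different colors, wild-type hosts above and Tgfb1 heterozygote hosts below. Mrc1 climbs with the matrix value in both genotypes (r = 0.83 and 0.75), C1qa less so (0.45 and 0.24), and Arg1 runs the other way in wild-type hosts (-0.49) and has r = -0.16 in heterozygote hosts.

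Hypoxia and glycolysis genes ran opposite to Csf1r, C1qa and C1qb in both genotypes, and to some of the other genes in heterozygote hosts. Csf1r had r = -0.50 in wild-type hosts (rho -0.51, permutation adjusted p = 0.0155) and -0.73 in heterozygote hosts (rho -0.67, permutation adjusted p = 0.0009). C1qa had r = -0.52 in wild-type hosts (rho -0.60, permutation adjusted p = 0.0113) and -0.58 in heterozygote hosts (rho -0.58, permutation adjusted p = 0.0128). Without the 2 extreme tumors these 4 values lay between -0.63 and -0.58. C1qb had r = -0.45 in wild-type and -0.48 in heterozygote hosts (permutation adjusted p = 0.0265 and 0.0457). In heterozygote hosts it did not pass with group means removed (permutation adjusted p = 0.052) or without the extreme tumors (0.0706). Csf1 (r = -0.63), Cd68 (-0.60), Ccr2 (-0.53) and Mrc1 (-0.51) passed in heterozygote but not in wild-type hosts. Without the extreme tumors only Csf1 of these still passed there. Arg1, Cd163 and Ccl2 did not pass in either genotype.

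The epithelial value fell into separate clusters, so relations with it were computed only within the 28 tumors of wild-type and the 20 of heterozygote hosts above the gap. Only Arg1 passed, with r = 0.51 in wild-type hosts (permutation adjusted p = 0.0166) and 0.52 in heterozygote hosts (permutation adjusted p = 0.0478). The relation rested on the 2 extreme tumors, without which r was 0.23 in wild-type and 0.12 in heterozygote hosts. Over all 28 and 20 tumors rho was 0.26 and 0.30, and the relation in heterozygote hosts did not pass with group means removed (r = 0.47, permutation adjusted p = 0.0692). The 4 tumors of wild-type hosts below the gap had a median Csf1r of 12.77, against 11.59 above it, and a median Arg1 of 7.13, against 10.74. In heterozygote hosts the median Csf1r was 12.43 in the 4 tumors below and 11.23 in the 20 above the gap, and the median Arg1 was 8.49 below and 10.76 above. These medians describe tumors sorted by the data and were not tested.

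Genes with more than 1 probe set gave like patterns over tumors. The other probe sets of Csf1r correlated at 0.97 to 0.99 with the one used, those of C1qb at 0.84 to 0.93 and those of Csf1 at 0.79 to 0.97. Those of Ccr2, which had means of 5.02 to 5.86 and lay near the median of all values, 5.826, correlated at 0.71 to 0.97.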

How the data were processed

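Gene expression of 56 tumors was measured on Affymetrix arrays with the 3'IVT Express labelling kit, per the labels' protocols. The authors made log2 expression values with RMA, per the submitters' processing notes, which name no version, and deposited those values. Of 45101 probe sets 34958 had 1 gene symbol, 932 had several and 9211 had none in the platform annotation, and symbols were updated through gene identifiers to GRCm38.p6 (12467 of 12508 genes matched). Probe sets exceeding the overall median (5.826) on 6 or more arrays were kept, and a gene was represented by its probe set of highest mean. limma 3.58.1 in R 4.3.3 fitted 4 group means over 56 arrays (lmFit and eBayes, Benjamini-Hochberg adjustment over 12508 genes, threshold 0.05). Precision is limited by the number of arrays, and the labels name no batch. A list's value in a tumor is the mean of the log2 values of its measured genes. Correlations were tested with two-sided permutation tests (100000 resamples, smallest possible p 1e-05) in Python 3.11.15; where the largest gap on the x axis exceeded 25% of its range, only the larger cluster was used. The methods were tested on simulated data.

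All 10 genes were named, with the 5 genes most like each of Csf1r, Ccl2, Arg1 and Csf1 and, from each list, genes called or up to 4 with the lowest p. The genes and the 18 lists were chosen with earlier results of these data known. Replicate numbers are unique across groups. No paired analysis was possible because the groups share no replicate numbers. The alternatives are given at the end.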

Additional observations from a re-analysis of the deposited data

Results flagged for a closer look

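Among the 20 groups of 6 or 9 tumors tested for a value far from the others, 2 values stood apart, where chance gives about 1 in 20. Arg1 was 6.02 in sham-irradiated heterozygote replicate 52, where the nearest of the other 5 tumors had 9.25; the gap was 0.70 of the range of the group. Without this tumor the Arg1 log2 fold change in heterozygote hosts was 0.42, beside 1.08 with it. Ccl2 was 12.74 in sham-irradiated wild-type replicate 46, where the nearest of the other 8 had 10.11, a gap of 0.51 of the range. Without it the Ccl2 log2 fold change in wild-type hosts was -0.18, beside -0.66.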

How the results depend on the processing

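No gene was called in any of the 3 comparisons, and 1 setting moved that count: with all 34958 probe sets of 1 symbol tested, 1 was called in wild-type hosts, for the pseudogene Ppp4r1l-ps (-0.84, limma adjusted p = 0.0081), named after its value was seen. At an unadjusted p of 0.05 the counts were then 3012 in wild-type hosts, 2223 in heterozygote hosts and 1885 for the difference. The 10 genes were never called over 380 values under the alternatives (lowest limma adjusted p 0.297) or over 300 values with 1 sham-irradiated tumor left out (lowest 0.463). Of these 34 and 13 changed sign, none of them called in any setting, and the cause was not tested. With the 18S value in the model the values were C1qa -0.065, Cd163 -0.096 in the difference between genotypes, Mrc1 0.037 in heterozygote hosts and Ccr2 0.058, Csf1r 0.218 in wild-type hosts. With the 3' minus 5' difference as a covariate the values were Cd68 -0.087, Mrc1 0.295 in heterozygote hosts. With array weights the values were C1qa -0.025, Ccl2 -0.020, Cd163 -0.164 in the difference between genotypes and Cd68 -0.018, Csf1r -0.052 in heterozygote hosts. With the epithelial mean as a covariate the values were Mrc1 0.254 in heterozygote hosts. With the fibroblast and matrix mean as a covariate the values were Mrc1 0.373 in heterozygote hosts and Csf1r 0.048 in wild-type hosts. Without arrays of an 18S value below 11 the values were C1qa -0.105, C1qb -0.027, Cd163 -0.162 in the difference between genotypes and Csf1r 0.094 in wild-type hosts. Without tumors of a mean epithelial value below 10 the values were C1qa -0.010 in the difference between genotypes, Ccl2 0.126, Mrc1 0.298 in heterozygote hosts and Ccr2 0.007, Cd68 0.064, Csf1r 0.062 in wild-type hosts. With the pan-macrophage mean as a covariate the values were C1qa -0.097, C1qb -0.029 in the difference between genotypes and C1qa -0.037, Cd68 -0.157, Csf1 -0.155, Csf1r -0.099 in heterozygote hosts. With the third probe set by mean the values were Ccr2 0.074, Csf1r 0.073 in wild-type hosts. With the fourth probe set by mean the values were Csf1 0.023 in the difference between genotypes. With 1 sham-irradiated tumor left out in turn, values that changed sign ran for C1qa in the difference between genotypes between -0.080 and 0.203, Ccl2 in the difference between genotypes between -0.212 and 0.748, Ccl2 in heterozygote hosts between -0.656 and 0.084, Cd163 in the difference between genotypes between -0.064 and 0.502, Cd68 in heterozygote hosts between -0.076 and 0.210. They ran for Cd68 in wild-type hosts between -0.354 and 0.005, Csf1r in heterozygote hosts between -0.018 and 0.414, Csf1r in wild-type hosts between -0.145 and 0.079, Mrc1 in heterozygote hosts between -0.300 and 0.251. Of the correlations, 5 changed sign without the 2 tumors farthest from the median: Arg1 with Csf1r in heterozygote hosts 0.307, Arg1 with the matrix value in heterozygote hosts 0.047, C1qb with the matrix value in heterozygote hosts -0.027, Cd68 with the hypoxia value in wild-type hosts -0.181, Ccl2 with the hypoxia value in wild-type hosts -0.253. The covariates other than the 18S control, the 3' minus 5' difference and the epithelial mean, and leaving out tumors of a low epithelial value, were chosen after seeing the data.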
